A study of Homo sapiens with 7 samples.

Results

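Chromosomes 18 and 19 are the gene-poor and the gene-rich member of a pair of human autosomes of similar size, and their replication timing was compared on 6 two-colour arrays that shared a design of 180880 features. All non-control probes that the deposited tables place on either chromosome (genome build hg19) were taken, 4152 spots on chromosome 18 and 4205 on chromosome 19 out of 174334 non-control spots in all, and averaged in windows of 250 kb. Windows with at least 3 probes on every array numbered 297 on chromosome 18 and 221 on chromosome 19, 518 of 11175 windows on chromosomes 1 to 22 and X. Before that filter, 299 and 221 windows held any probe. The largest stretch without probes ran from position 14966055 to 18529850 on chromosome 18 and from 24340742 to 28272496 on chromosome 19, and it divides the arms in what follows.

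The series measured when DNA is copied during S phase in 2 human cell lines. K562 is a suspension line from chronic myeloid leukaemia, and U2OS is an adherent line from an osteosarcoma. Both were grown without any treatment named in the labels other than the BrdU label itself, a 2 h pulse of 50 µM bromodeoxyuridine (BrdU), after which 80000 cells were sorted by DNA content into early and late S phase. DNA made during the pulse was pulled down with an antibody to BrdU, amplified, and hybridised with the early fraction in Cy3 and the late fraction in Cy5. K562 was on 2 arrays of this design, prepared with a new and with an old cell sorting method, and U2OS was on 4 arrays, 2 handled manually and 2 by automation. Wherever values for 6 arrays are listed, the order is K562 new sorting, K562 old sorting, U2OS manual 1, U2OS manual 2, U2OS automated 1 and U2OS automated 2. The labels do not say that the arrays came from separate cultures, so the tests measure the spread between arrays, which may be technical. The dyes were never swapped, so a dye effect and timing cannot be told apart within an array.

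The genome is copied in large blocks, each fired by a cluster of origins at a characteristic time in S phase. Early blocks are as a rule rich in genes and in open chromatin, and late blocks are rich in heterochromatin and often lie against the nuclear lamina. Chromosome 18 is known for its place near the nuclear edge and chromosome 19 for its place in the interior, and chromosome 19 carries the large clusters of KRAB zinc finger genes, whose products are mostly repressors of transposable elements. Values below are log2(early/late), centred on the median probe of each array. A window above 0 is called early and a window below 0 late, relative to that median probe. A domain is a run of adjacent windows of the same sign on an array, and a window with too few probes ends a run.

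Each value rests on short genomic probes, of which the following carry the main results: the probes nearest the centre of an early and of a late window of chromosome 18, of 3 chromosome 18 windows that differed between the lines, and of the latest window of chromosome 19. They are written as the deposited tables give them, which state no strand, with CG dinucleotides in capitals. The name is the one the probe carries.
TWSG1, chr18:9371063-9371122: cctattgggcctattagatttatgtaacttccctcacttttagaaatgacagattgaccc
Y12726, chr18:4887764-4887823: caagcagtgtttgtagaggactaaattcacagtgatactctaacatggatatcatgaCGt
TTC39C, chr18:21624148-21624201: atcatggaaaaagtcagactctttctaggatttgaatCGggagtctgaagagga
KCTD1, chr18:24125266-24125325: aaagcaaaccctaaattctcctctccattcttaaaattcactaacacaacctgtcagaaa
TCF4, chr18:53120817-53120876: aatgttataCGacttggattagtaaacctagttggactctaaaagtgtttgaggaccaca
ENST00000526123, chr19:37376703-37376762: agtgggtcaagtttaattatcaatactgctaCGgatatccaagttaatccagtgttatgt
The TWSG1 probe lay in early DNA on each array, with log2(early/late) of 1.3, 0.90, 0.72, 1.05, 1.13 and 1.3. The probe near ZNF829 named ENST00000526123 was late on each, at -2.46, -2.32, -1.05, -1.13, -2.28 and -2.0. The TTC39C probe was late in K562, at -1.49 and -0.96, and read -0.09, 0.32, 0.48 and 0.55 in U2OS. The KCTD1 probe read -2.97 and -1.95 in K562 and 0.22, 0.22, 0.25 and -0.19 in U2OS. The probes of the 2 chromosomes were alike in base composition, with a median GC content of 36.7% on both and a mean of 0.440 CG dinucleotides per probe on chromosome 18 and 0.495 on chromosome 19. Probe spacing was also close, with medians of 14.3 kb and 12.0 kb.

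Some facts of the arrays bear on what follows. DPPA2, a late control locus of the protocol, was below 0 on each of the 6 arrays, and BMP1, the early control, was between 0.16 and 1.08. The summed signal at CDKN2A, a gene known to be deleted in K562, was -3.35 and -2.33 (log2, relative to the median probe) on the K562 arrays and between -1.17 and -0.87 on the U2OS arrays. Median spot signals ranged from 37.1 to 199.8 in the early channel and from 45.2 to 227 in the late channel, with both manual U2OS arrays between 45.2 and 50.1 in both. Chromosome 19 was dim in the late channel, at 0.611 to 0.778 of the array median, and chromosome 18 was dim in the early channel, at 0.720 to 0.918. On the manual U2OS arrays chromosome 19 was below the array median in the early channel too, at 0.939 and 0.852. Its summed signal was 0.72 to 0.89 of the array median on the 6 arrays. The part of total signal in the results was not tested. The manual arrays shared a slide and every other array had its own, so handling and slide cannot be told apart, and no slide held both lines. On chromosome 18 the old-sorting K562 array stood apart. Its early channel was the dimmest, with 34.4% of chromosome 18 spots well above background against at least 70.7% on the other 5 arrays. Its correlation with the new-sorting array was 0.609 over 297 windows, with 21.9% of windows of opposite sign, against 0.908 and 8.14% over the 221 windows of chromosome 19. On chromosome 18 the new-sorting array was closer to the U2OS arrays than to the old-sorting array, with correlations of 0.713 to 0.780 and 15.8% to 19.2% of windows of opposite sign. Every chromosome 18 comparison of the lines rests on this unlike pair. A K562 array of another design, labelled 44k, correlated at 0.971 with the new-sorting array and at 0.698 with the old-sorting array over the 241 windows of chromosome 18 that it covered. BMP1, the early control, was below 0 on the 44k array, from 1 probe. The summed signal at CDKN2A was -1.16 there, within the range of the U2OS arrays, so this check did not bear out its K562 label. Over the 8913 windows it covered in the genome, it correlated at 0.973 and 0.805 with the K562 arrays and at 0.662 to 0.704 with the U2OS arrays. The array labelled 44k enters alternatives only. These windows are neighbours that share each array's centring, so the correlations are descriptions. Counts of windows and gene names of constant sign are given on all 6 arrays and, for the windows and the lists they change most, on the 5 arrays without the old-sorting array.

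Chromosome 18 was mostly late and chromosome 19 mostly early on each of the 6 arrays. Early windows made up 28.3%, 38.0%, 27.3%, 32.7%, 29.3% and 29.0% of chromosome 18. On chromosome 19 the shares were 77.8%, 72.4%, 72.9%, 74.2%, 72.9% and 72.9%. The groups of values did not overlap, and the highest chromosome 18 share, on the old-sorting array, was 34.4 percentage points below the chromosome 19 share of the same array. The means were 30.8% ± 4.01 for chromosome 18 and 73.8% ± 2.05 for chromosome 19 (SD, n = 6 arrays), a difference of 43.1 ± 5.05 percentage points that ran from 34.4 to 49.5. An exact two-sided sign-flip permutation test over the 6 arrays gave p = 0.03125, the smallest p that 6 arrays allow (0.03125 after Benjamini-Hochberg adjustment over the 5 chromosome measures). The mean difference was 41.9 points in K562 and 43.6 in U2OS. Without the old-sorting array it was 44.8 points.

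**Figure D1:**
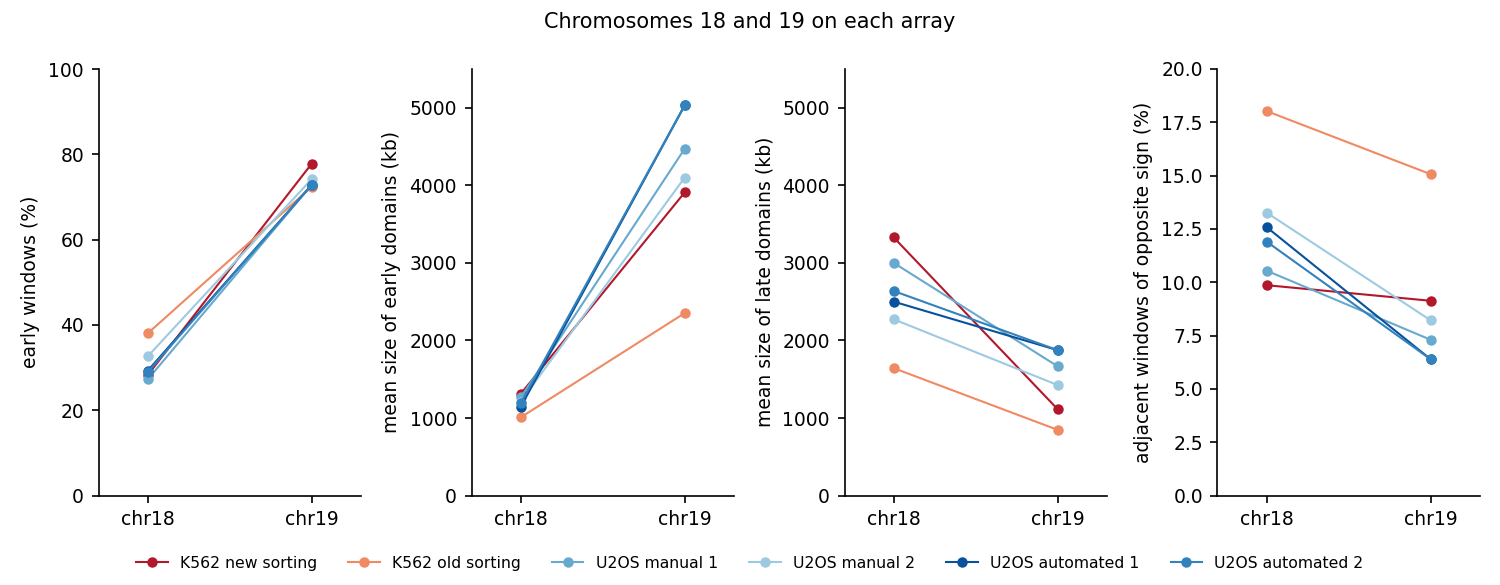
Share of early 250-kb windows (%), mean size of early domains (kb), mean size of late domains (kb) and share of adjacent windows of opposite sign (%) on chromosomes 18 and 19; each line joins the 2 values of an array. The lines for early share and early domain size rise from chromosome 18 to chromosome 19 on all 6 arrays, with early shares of 27.3% to 38.0% on chromosome 18 and 72.4% to 77.8% on chromosome 19.

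Among the 23 chromosomes measured, chromosome 18 had the lowest density of gene names on its probes, 4.53 per Mb of probed span, and chromosome 19 the highest, 24.2 per Mb. Their probes carried 353 and 1423 gene names over 77.9 Mb and 58.8 Mb. In the share of early windows neither chromosome was at the extreme. Chromosome 4, at a mean of 26.5%, was lower than chromosome 18 and the X chromosome, at 31.5%, was next above it, a gap smaller than the SD of chromosome 18. Chromosomes 17 and 22 had means of 77.3% and 85.5%, above the 73.8% of chromosome 19 although their densities were lower, at 14.5 and 16.6 names per Mb. Chromosome 22 was above chromosome 19 on each of the 6 arrays, and chromosome 17 on 5, all but the new-sorting K562 array.

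**Figure D2:**
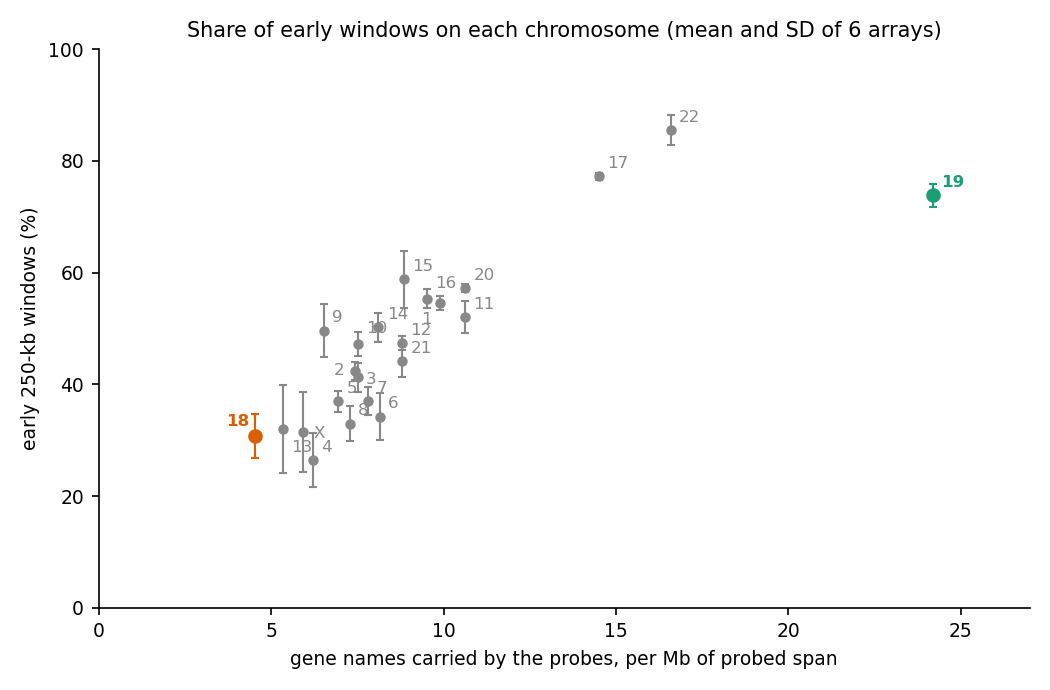
Mean share of early 250-kb windows (%) of each chromosome against the number of gene names carried by its probes per Mb of probed span; points are means and bars SDs of 6 arrays. Chromosome 18 lies at the left end at 4.53 names per Mb with 30.8% early windows, and chromosome 19 at the right end at 24.2 names per Mb with 73.8%, below chromosomes 17 and 22.

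The median window showed the same order. On chromosome 18 the median log2(early/late) was -1.37, -0.22, -0.40, -0.38, -0.73 and -0.69, and on chromosome 19 it was 0.53, 0.20, 0.23, 0.21, 0.63 and 0.68. All chromosome 18 medians were below 0 and all chromosome 19 medians above it. The means were -0.63 ± 0.41 and 0.42 ± 0.22 (SD, n = 6), and the difference of 1.04 ran from 0.42 on the old-sorting K562 array to 1.91 on the new-sorting array (exact sign-flip permutation test, p = 0.03125). The size of this difference depended on the treatment of the signal: it was 1.90 with the scanner software's deposited log ratio and 1.80 with a background offset of 0.

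Window by window, 46 windows of chromosome 18 (15.5%) were early on all 6 arrays, 127 (42.8%) were late on all 6, and 124 changed sign between arrays. On chromosome 19, 140 windows (63.3%) were early on all 6, 38 (17.2%) were late on all 6, and 43 changed sign. Without the old-sorting array, 50 windows of chromosome 18 were early on all 5 arrays, 172 (57.9%) were late and 75 changed sign, and on chromosome 19 the counts were 150, 39 and 32. Early windows were the gene-rich ones on both chromosomes. The median number of gene names was 3 in the always-early and 1 in the always-late windows of chromosome 18, and 8 and 4 on chromosome 19. Of the always-late windows, 29.1% on chromosome 18 and 7.89% on chromosome 19 carried no gene name.

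The early DNA of chromosome 18 was broken into short domains, and that of chromosome 19 lay in long ones. Mean early domains on chromosome 18 measured 1312, 1009, 1266, 1212, 1145 and 1194 kb. On chromosome 19 they measured 3909, 2353, 4472, 4100, 5031 and 5031 kb. No chromosome 19 value fell to the range of chromosome 18, and the old-sorting array was lowest on both. The means were 1190 ± 106 kb and 4149 ± 995 kb (SD, n = 6), a difference of 2960 kb (exact sign-flip permutation test, p = 0.03125). The direction held with 100-kb windows, but the difference was then 916 kb, and it was 1482 kb with probes well above background only.

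By their mean size, late domains were longer on chromosome 18 at this window size. They averaged 3328, 1643, 3000, 2273, 2500 and 2638 kb on chromosome 18 and 1114, 847, 1667, 1425, 1875 and 1875 kb on chromosome 19. On each array the mean was larger on chromosome 18. The median late domain was longer on chromosome 18 on the K562 and the manual U2OS arrays only. On the automated arrays it was 1250 and 1500 kb on chromosome 18 and 1750 and 2000 kb on chromosome 19. The mean difference of chromosome 19 from chromosome 18 was -1096 kb (exact sign-flip permutation test, p = 0.03125). With probes well above background only, the difference was -467 kb. The result did not hold with 100-kb windows, where late domains averaged 491 kb and 497 kb and the difference was 6.06 kb with p = 1 in the same exact test. With the 44k array in place of the old-sorting array, a setting that leaves fewer covered windows and so breaks runs, the difference was 181 kb. Adjacent windows of opposite sign were 9.86%, 18%, 10.5%, 13.3%, 12.6% and 11.9% of neighbouring pairs on chromosome 18 and 9.13%, 15.1%, 7.31%, 8.22%, 6.39% and 6.39% on chromosome 19. The share was thus lower on chromosome 19 on each array, with a mean difference of -3.95 points (exact sign-flip permutation test, p = 0.03125), but the difference was 0.727 with probes well above background only, with p = 0.75 in that test.

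**Figure D3:**
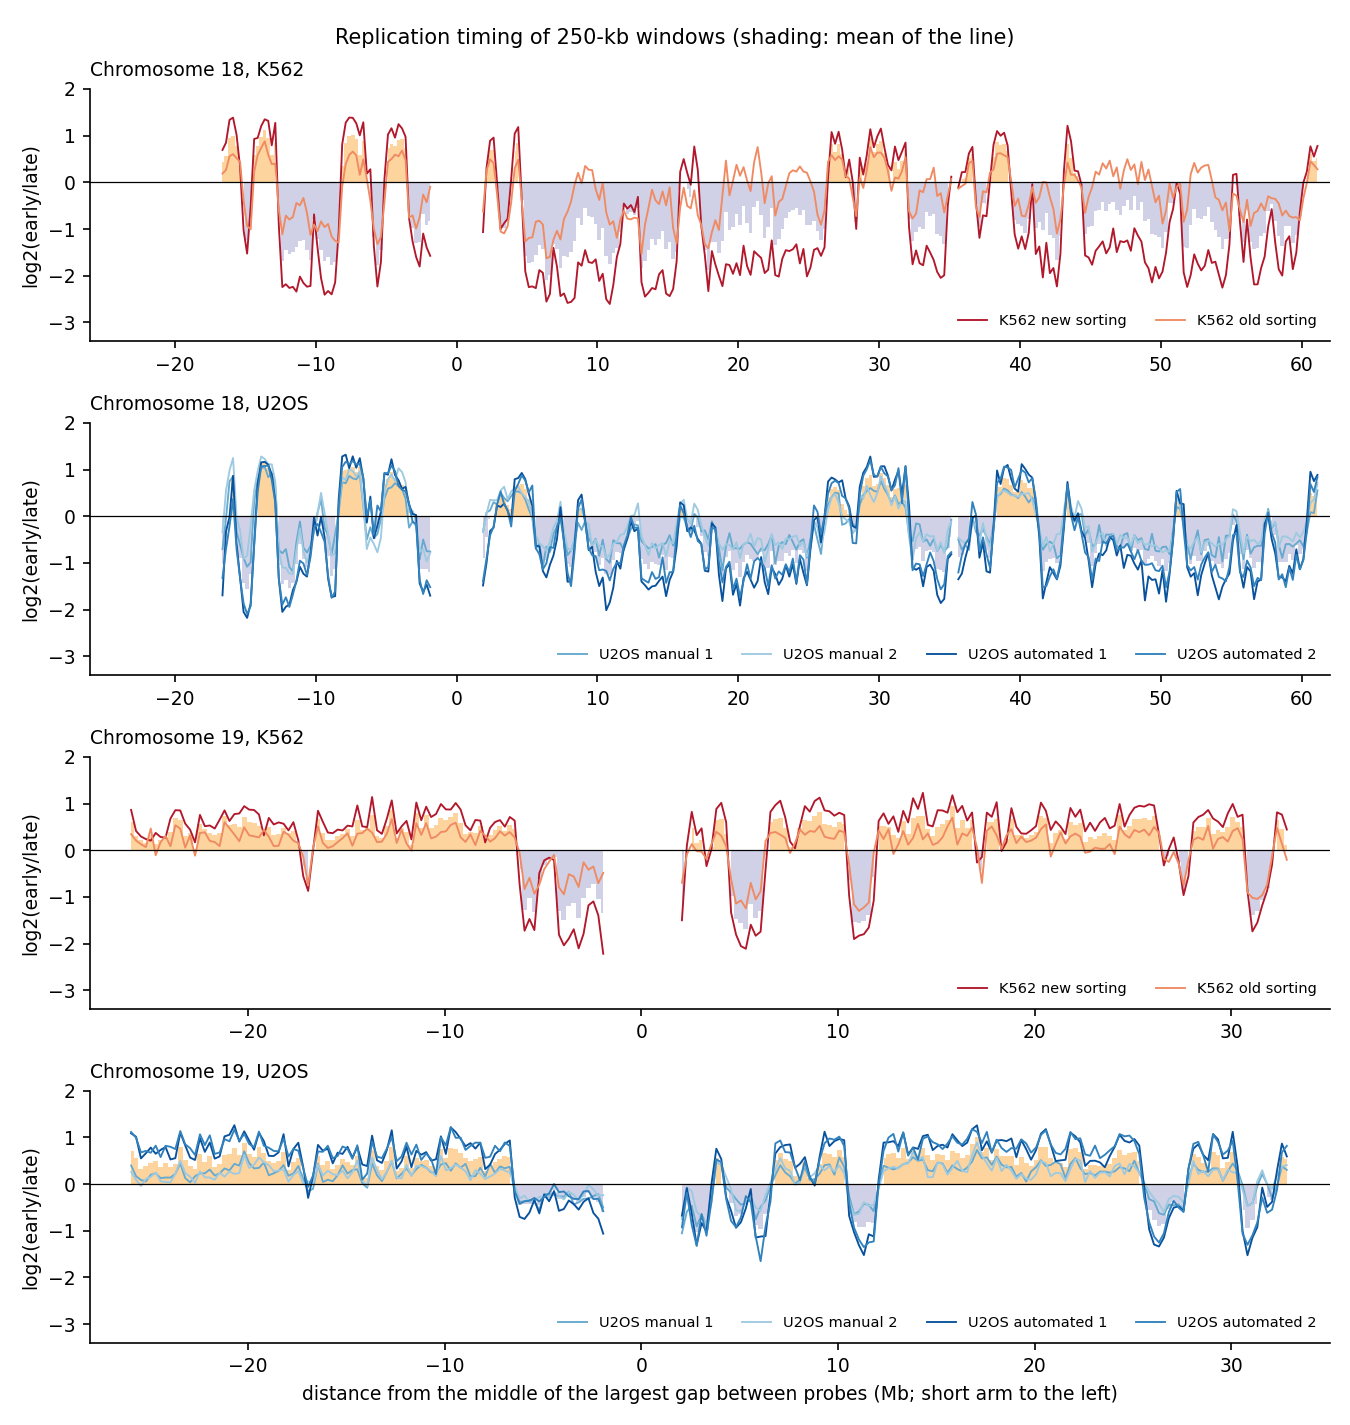
Log2(early/late) of 250-kb windows along chromosomes 18 and 19 in K562 and U2OS against distance (Mb) from the middle of the largest gap between probes; lines are arrays, and shading is the mean of the line. Chromosome 18 shows early peaks between long late stretches, while on chromosome 19 the early stretches of the mean profile reach 10500 kb in K562 and 13250 kb in U2OS.

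In the mean profile of each line, chromosome 18 had 15 early domains covering 18.75 Mb in K562 and 19 covering 21.5 Mb in U2OS, beside 55.5 Mb and 52.75 Mb of late DNA. Chromosome 19 had 10 early domains covering 42.75 Mb in K562 and 8 covering 40.5 Mb in U2OS, beside 12.5 Mb and 14.75 Mb of late DNA. The largest early domain of chromosome 18 was the same in both lines, chr18:45250001-48750000, with mean log2(early/late) of 0.49 in K562 and 0.65 in U2OS. On single arrays the largest early domain was 3500 kb on the new-sorting and 1750 kb on the old-sorting K562 array, and 3500 to 3750 kb in U2OS. The shared domain held SMAD2, SMAD4 and SMAD7, the signal carriers and the inhibitor of the TGF-beta pathway, together with MBD1, a reader of methylated DNA, CXXC1, a subunit of a histone H3 lysine methyltransferase complex, and MYO5B, a myosin motor. The largest late domain differed. In K562 it was chr18:61000001-77000000, which runs from the SERPINB protease inhibitor cluster to ATP9B and averaged -0.80. No single K562 array had a late domain of that length, with 11250 kb the largest on the new-sorting and 9250 kb on the old-sorting array. In U2OS it was chr18:33000001-43000000, from INO80C to SETBP1, at -0.73. Each stretch was mostly late in the other line too. K562 was late over chr18:33750001-43000000, at -0.92. U2OS was late over chr18:61000001-67750000, chr18:68250001-74250000 and chr18:74500001-77250000, at -0.72, -0.80 and -0.71, with short early runs between them.

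On chromosome 19 the largest early domain of K562 was chr19:9500001-20000000, with 310 gene names and a mean of 0.46. The largest early domain was 10500 kb on the new-sorting array and 5250 kb on the old-sorting array. The region includes DNMT1, the maintenance DNA methyltransferase, SMARCA4, a chromatin remodelling ATPase, and KLF1 and EPOR, a transcription factor and a receptor of red cell development. Nearly the same stretch, chr19:9500001-19750000, was an early domain in U2OS too, with a mean of 0.48. KLF1 averaged 0.64 in K562 and 0.51 in U2OS, and EPOR 0.14 and 0.64, and neither was called between the lines. The largest early domain of U2OS was chr19:38500001-51750000, with 412 gene names and a mean of 0.60. The largest late domain lay beside the probe gap in both lines, at chr19:20000001-24500000 in K562, with a mean of -0.94, and at chr19:19750001-24500000 in U2OS, with a mean of -0.33. Most of its named genes are zinc finger genes, among them ZNF43, ZNF85, ZNF91, ZNF93, ZNF208 and ZNF254. The largest late domain of chromosome 19 on single arrays was 4500 kb on both K562 arrays. It was 4750 kb on both manual U2OS arrays and on automated 1, but 2500 kb on automated 2.

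Both arms of chromosome 19 were mostly early, and both arms of chromosome 18 mostly late. On chromosome 18 the short arm was early in 45.8% of its 60 windows in K562 and 45.4% in U2OS, and the long arm in 30.0% and 25.5% of 237 windows (means of 2 and 4 arrays). On chromosome 19 the short arm was early in 77.8% and 78.9% of 97 windows and the long arm in 73.0% and 68.8% of 124 windows. The outer 5 Mb of the short arm of chromosome 19 was early in 94.7% of windows in K562 and 98.7% in U2OS. That of chromosome 18 was early in 65.0% on both K562 arrays and in 35% to 50% on the U2OS arrays. Within 5 Mb of the probe gap, early windows were 36.9% on chromosome 18 in K562 and 55.4% in U2OS, and 31.0% and 16.1% on chromosome 19, which there was the later of the chromosomes in both lines. No test was run on these shares by position.

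The chromosomes were also compared within classes of gene content, which narrow but do not remove their difference in gene names. Among windows with 3 or more gene names, 70 on chromosome 18 and 195 on chromosome 19, the early share was 60.0%, 50.0%, 54.3%, 64.3%, 52.9% and 50.0% on chromosome 18. On chromosome 19 it was 82.1%, 76.9%, 79.0%, 80.5%, 79.0% and 79.0%. The ranges did not overlap, and the means were 55.2% ± 5.76 and 79.4% ± 1.73 (SD, n = 6), a difference of 24.2 points (exact sign-flip permutation test, p = 0.03125, adjusted to 0.0469 over 3 classes). It was 14.7 points with 100-kb windows. This class was still unequal inside, with a median of 3 names per window on chromosome 18 and 7 on chromosome 19.

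Windows with 1 to 2 gene names, 160 on chromosome 18 and 21 on chromosome 19, held a median of 1 and 2 names. They were early in 27.5% ± 3.71 and 38.1% ± 7.38 (SD, n = 6), a difference of 10.6 points seen on 6 of 6 arrays (exact sign-flip permutation test, p = 0.03125, adjusted 0.0469). It was 29.4 points with 100-kb windows. Windows without a gene name numbered 67 on chromosome 18 and 5 on chromosome 19. They were early in 4.48%, 35.8%, 8.96%, 10.4%, 8.96% and 8.96% on chromosome 18, so the old-sorting array alone was high. On chromosome 19 they were late on 5 arrays, and 2 of the 5 windows were early on the new-sorting K562 array. The difference of -6.27 points had p = 0.5 in the same exact test, and it turned positive with 100-kb windows, at 16.1 points, with p = 0.03125.

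**Figure D4:**
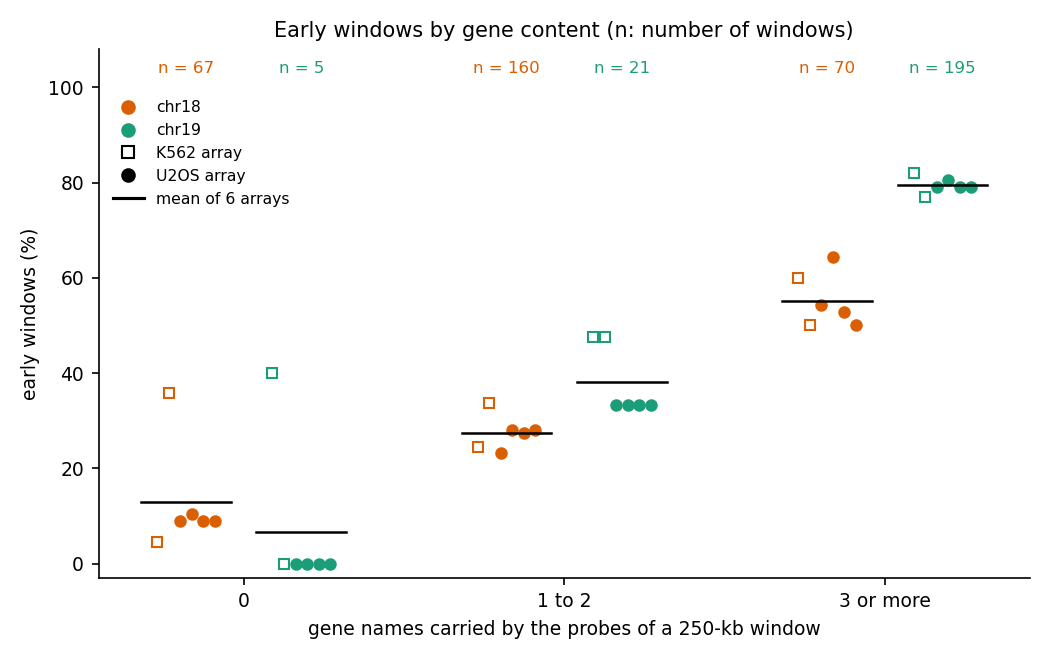
Share of early windows (%) on each array among windows with 0, 1 to 2 and 3 or more gene names on their probes; squares are K562 arrays, circles U2OS arrays, bars the mean of 6 arrays and n the number of windows. Chromosome 19 lies above chromosome 18 in the classes with gene names, at 38.1% against 27.5% and at 79.4% against 55.2%, while its class without names holds only 5 windows.

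The regions that were early on all 6 arrays show what the early islands of chromosome 18 contain. The highest window was chr18:3000001-3250000, inside an always-early run at chr18:2500001-4000000. It read 1.35, 0.88, 1.06, 1.23, 1.17 and 1.08, a mean of 1.13 ± 0.16 (SD, n = 6). The run carries NDC80, a kinetochore protein, SMCHD1, a chromatin protein of X inactivation, LPIN2, a phosphatidate phosphatase, MYOM1, a protein of the muscle M band, and TGIF1, a repressor of TGF-beta signalling. The next runs were chr18:8750001-10250000, highest at 1.05 ± 0.28 around TWSG1, a secreted binder of bone morphogenetic proteins, and chr18:45750001-47500000, highest at 0.92 ± 0.20 in DYM. In these 3 windows the K562 minus U2OS differences were -0.02, -0.04 and -0.04, with SEs of 0.26, 0.30 and 0.27.

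The latest always-late run of chromosome 18 adjoins the earliest: chr18:4000001-6750000, 11 windows with EPB41L3, a membrane skeleton protein, ZFP161 and L3MBTL4. Its lowest window, chr18:4750001-5000000, read -2.26, -0.80, -1.09, -1.23, -1.89 and -1.94, a mean of -1.53 ± 0.58 (SD, n = 6). The old-sorting and manual arrays were nearest to 0 there, and all 6 were below it. The highest and the lowest windows named on chromosome 18 thus lie in adjoining runs of its short arm.

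On chromosome 19 the earliest always-early run was chr19:3750001-9000000, 21 windows long. Its highest window, chr19:6000001-6250000, holds RFX2, a transcription factor of ciliated cells, ACSBG2 and MLLT1, a subunit of transcription elongation complexes, and read 0.94, 0.49, 0.70, 0.63, 1.13 and 1.08, a mean of 0.83 ± 0.26 (SD, n = 6). The latest run was chr19:36750001-38250000, lowest at chr19:37250001-37500000, where values were -1.83, -1.30, -0.58, -0.63, -1.31 and -1.19, a mean of -1.14 ± 0.47. Its genes are almost all zinc finger genes, among them ZNF345, ZNF568, ZNF790, ZNF829 and ZNF850. The other 2 of the 3 latest were chr19:30750001-32500000, with ZNF536 and TSHZ3, zinc finger regulators of development, lowest at -1.08 ± 0.53, and chr19:57000001-57500000, with ZNF470, ZNF471 and the imprinted gene ZIM2, lowest at -0.97 ± 0.50.

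No difference between the lines in early share was detectable by this design on either chromosome. On chromosome 18 early windows were 33.2% ± 6.90 in K562 (SD, n = 2) and 29.5% ± 2.26 in U2OS (n = 4), with an exact permutation p of 0.467. On chromosome 19 they were 75.1% ± 3.84 and 73.2% ± 0.679, with an exact permutation p of 0.333. The chromosome 19 minus chromosome 18 difference was -1.70 points apart between the lines, from K562 minus U2OS, with an exact permutation p of 0.733. The design of 2 against 4 arrays cannot go below 0.0667, so no difference of this kind could pass 0.05 and a larger p does not show that the lines are alike. On chromosome 19 that smallest p was reached with a background offset of 0, the deposited log ratio, loess, 500-kb windows and mean centring, with K562 higher by 5.32, 4.86, 2.94, 3.79 and 5.66 points. The difference between the chromosomes reached it with the first 3 of these, at 5.49, 5.87 and 3.19 points (exact permutation p = 0.0667). Without the old-sorting array the K562 minus U2OS difference was -1.26 points on chromosome 18 and 4.64 on chromosome 19, and without the new-sorting array it was 8.50 and -0.792.

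Of the 15 comparisons of lines run on these chromosome measures, 5 had groups that did not overlap, each with an exact permutation p of 0.0667 and 0.2 after adjustment. On chromosome 19, early domains were shorter in K562, at 3909 and 2353 kb against 4100 to 5031 kb in U2OS. Late domains there were also shorter, at 1114 and 847 kb against 1425 to 1875 kb. Adjacent windows of opposite sign were more frequent, at 9.13% and 15.1% against 6.39% to 8.22%. The other 2 were the differences between the chromosomes in early domain size and in sign changes. On chromosome 18 the K562 arrays lay on either side of the U2OS arrays in the size of early and of late domains.

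Individual windows did differ between the lines. Across the genome, limma called 8.64% of 11175 windows, 2.12% earlier and 6.51% later in K562. A call needed a Benjamini-Hochberg adjusted p below 0.05 and a log2 difference of 1 or more in size. On chromosome 18 it called 25 of 297 windows (8.42%), 2 earlier and 23 later in K562, a share near that of the genome. On chromosome 19 it called 7 of 221 windows (3.17%), 3 earlier and 4 later. Whether that share differs from the genome's was not tested. The 25 windows included 17 whose line means had opposite signs, and the 7 included 6. Lines without overlap made up 29.5% of windows genome-wide, with 80 on chromosome 18 (26.9%) and 49 on chromosome 19 (22.2%). The median absolute difference between the lines was 0.32 on chromosome 18 and 0.17 on chromosome 19, beside 0.33 over all windows.

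These counts moved with each array left out, as did the count over the whole genome. On chromosome 18, without K562 new sorting, K562 old sorting, U2OS manual 1, manual 2, automated 1 or automated 2 in turn, limma called 5, 69, 10, 14, 8 and 4 windows, and on chromosome 19 it called 1, 24, 1, 3, 0 and 0. The shares of all windows called in those fits were 1.89%, 22.1%, 4.69%, 5.22%, 3.15% and 2.01%. Without the old-sorting array the 69 windows were 23.2% of chromosome 18 and the 24 were 10.9% of chromosome 19. In the fits with a count of 0, 25 and 19 windows of chromosome 19 had an unadjusted p under 0.05, against 29 with all arrays. With the 44k array in place of the old-sorting array the counts were 45 of 241 and 15 of 210, beside 1699 windows in the whole genome. The scanner software's log ratio gave 52 and 22, beside 2268 in the genome. With the main settings the genome count was 965. The split by direction also moved with the centring, the scaling and the dye correction: with arrays centred on the mean probe, 5 of 26 calls on chromosome 18 and 7 of 8 on chromosome 19 were earlier in K562, with arrays scaled to the same median absolute deviation 5 of 23 and 4 of 7, and with loess 4 of 16 and 5 of 5.

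**Figure D5:**
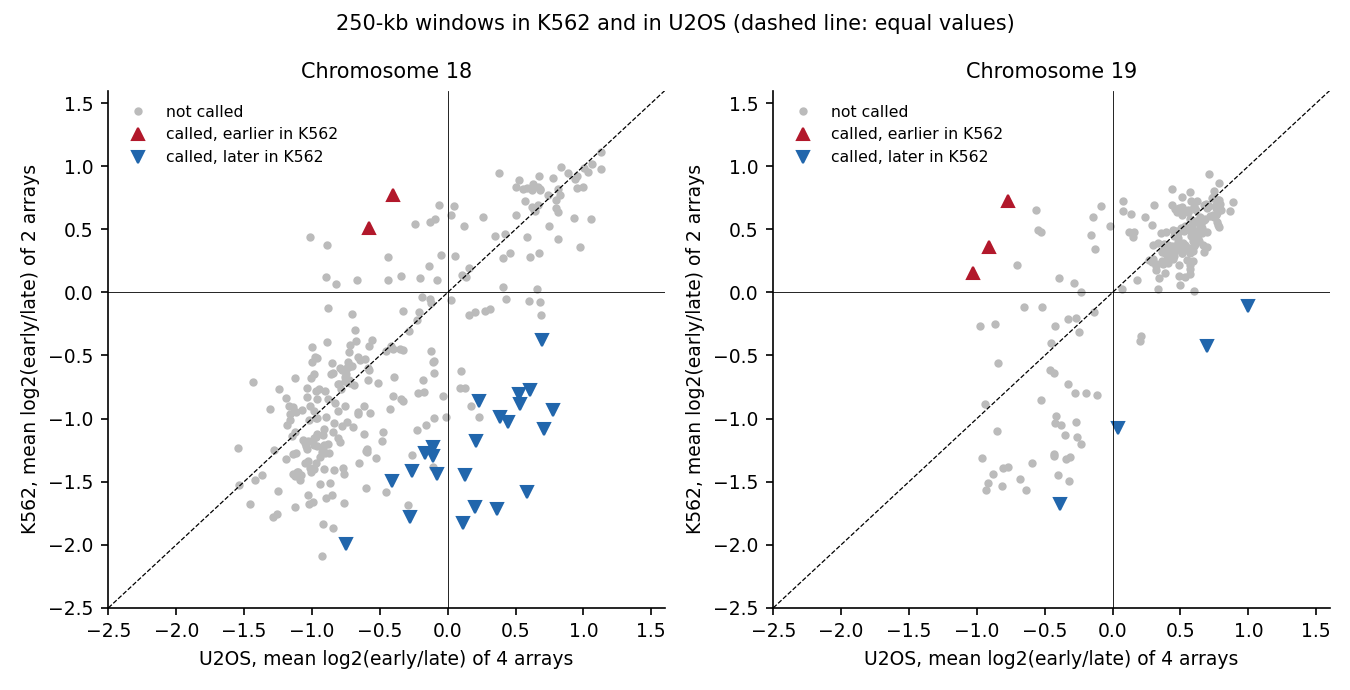
Mean log2(early/late) of each 250-kb window in K562 (2 arrays) against U2OS (4 arrays) on chromosomes 18 and 19; triangles are windows called by limma (adjusted p below 0.05, log2 difference of 1 or more in size), and the dashed line marks equal values. On chromosome 18, 23 of 25 called windows lie below the line, later in K562, and on chromosome 19 the 7 called windows lie on both sides.

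The 23 later windows of chromosome 18 formed 11 regions. The largest difference was at chr18:21250001-22250000, 4 windows with LAMA3, the alpha-3 chain of epithelial laminin, CABYR, a calcium-binding protein of sperm, OSBPL1A, a lipid-binding protein, IMPACT, a regulator of translation, and HRH4, a histamine receptor. In its leading window, which holds the TTC39C probe printed above, log2(early/late) was -1.91 and -1.27 in K562 and 0.36, 0.41, 0.80 and 0.77 in U2OS. The means were -1.59 and 0.58, a K562 minus U2OS difference of -2.17 (SE 0.29, limma adjusted p = 0.00858). The call held in 21 of 21 alternatives.

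The other leading regions were chr18:23750001-24250000 and chr18:56250001-57500000. In the KCTD1 window of the former, values were -2.44 and -1.22 in K562 and -0.03, 0.31, 0.19 and -0.03 in U2OS, and the lines differed by -1.94 (SE 0.35, limma adjusted p = 0.0149). The region also holds TAF4B, a germ cell form of a subunit of the general factor TFIID, and PSMA8, a proteasome subunit of the testis. In the latter, 5 windows carry MALT1, a protease of NF-kappa-B signalling in lymphocytes, ZNF532, SEC11C, GRP, RAX, CPLX4, LMAN1, a cargo receptor of the secretory pathway, and CCBE1, a factor of lymphatic vessel growth. Its leading window, at CCBE1 and LMAN1, read -1.43 and -0.73 in K562 and 0.42, 0.48, 1.01 and 0.94 in U2OS, and the lines differed by -1.79 (SE 0.32, limma adjusted p = 0.0136). Each of these calls held in 20 of 21 alternatives. The named regions were picked from called windows in which the lines did not overlap, so the lack of overlap adds no support.

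The 2 windows of chromosome 18 that were earlier in K562 were chr18:1000001-1250000, with no gene name, and chr18:53000001-53250000, within TCF4, which encodes a broadly expressed basic helix-loop-helix transcription factor. The TCF4 window read 0.62 and 0.41 in K562 and -0.72, -0.52, -0.60 and -0.48 in U2OS, and the lines differed by 1.09 (SE 0.25, limma adjusted p = 0.0299). Over all 28 TCF4 probes the difference was 1.02 with a limma adjusted p of 0.062, which was not called. The window without a gene name read 1.02 and 0.52 in K562 and -0.33, -0.0043, -0.57 and -0.70 in U2OS (difference 1.17, SE 0.30, limma adjusted p = 0.0440). Each call held in 14 of 21 alternatives.

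On chromosome 19 the leading region earlier in K562 was chr19:52250001-52750000. It holds FPR1, FPR2 and FPR3, the formyl peptide receptors of phagocytes, PPP2R1A, a scaffold subunit of protein phosphatase, and zinc finger genes including ZNF350, ZNF432, ZNF613, ZNF614, ZNF615, ZNF649 and ZNF841. Its leading window read 0.96 and 0.50 in K562 and -0.37, -0.30, -1.30 and -1.12 in U2OS, with means 1.5 apart (SE 0.36, limma adjusted p = 0.0360), and the call held in 18 of 21 alternatives. The automated arrays were much lower than the manual ones here. All 4 were below both K562 arrays, as the choice of regions required. The other earlier region was the window chr19:29000001-29250000, with a difference of 1.18 (SE 0.30, limma adjusted p = 0.0438), whose call held in 15 of 21 alternatives.

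Regions of chromosome 19 later in K562 were chr19:31500001-31750000, without a gene name, the pregnancy-specific glycoprotein genes at chr19:43250001-43750000 and zinc finger genes at chr19:57750001-58000000. Their differences were -1.29, -1.12 and -1.11. Like the earlier regions, they had limma adjusted p-values not far below 0.05. These were 0.0325, 0.0383 and 0.0402. The calls held in 10 of 19, 9 of 19 and 11 of 21 alternatives. In the glycoprotein region, PSG11 and its neighbours read -0.15 and -0.70 in K562 and 0.55, 0.62, 0.72 and 0.88 in U2OS.

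Gene names gave a like picture. Across the genome limma called 6.12% of 24656 gene names, 1.7% earlier and 4.42% later in K562. On chromosome 18, 4 of 353 were earlier and 25 later, and on chromosome 19, 15 of 1420 were earlier and 16 later. The lines did not overlap for 25.2% of names genome-wide, for 95 on chromosome 18 and for 245 on chromosome 19. Without the new-sorting K562 array limma called no gene name in the whole genome, although 77 on chromosome 18 and 201 on chromosome 19 then had an unadjusted p under 0.05. Without automated 2 the counts were 15 and 10, beside 3.36% of all names, and without automated 1 they were 20 and 18, beside 4.37%. The 16 later against 15 earlier calls of chromosome 19 became 7 against 29 with arrays centred on the mean probe and 2 against 18 with loess.

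Lists of genes were set against all 353 names of chromosome 18, of which 86 were early on all 6 arrays and 95 late on all 6, with a median of -0.12. On the 5 arrays other than old sorting, 97 were early throughout and 119 late. All 3 SMAD genes were early on all 6 arrays, with means of 0.48 ± 0.22 for SMAD2, 0.78 ± 0.28 for SMAD4 and 0.74 ± 0.33 for SMAD7 (SD, n = 6). The desmosomal cadherins, adhesion genes of epithelia and heart in a cluster on the long arm, were late on all 6 arrays in 5 of 7 members and early in none, from -0.29 for DSG2 to -0.87 for DSC2. Of the other cadherins, 1 of 4 was late on all 6, CDH20 at -0.87, and none early, with CDH2, N-cadherin, the earliest at -0.19. Without the old-sorting array, 3 of these 4 were late on all 5 arrays. Of the SERPINB genes 4 of 10 were late on all 6 and none early, from 0.07 for SERPINB5, known as maspin, to -0.94 for SERPINB10. No member of these 4 lists was called between the lines.

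Both laminin genes were later in K562. LAMA1 read -1.95 and -0.98 in K562 and 0.29, 0.39, 0.08 and -0.05 in U2OS, and the lines differed by -1.64 (SE 0.34, limma adjusted p = 0.0152). LAMA3 read -0.65 and -0.53 in K562 and 0.44, 0.41, 0.97 and 0.89 in U2OS, and the lines differed by -1.27 (SE 0.31, limma adjusted p = 0.0326). For both, every K562 value lay below every U2OS value. The lines were likewise apart in all 29 called names of chromosome 18, so this adds no support to the calls. The LAMA1 call held in 16 of 17 alternatives and the LAMA3 call in 10 of 17. LAMA1 lies on the short arm and LAMA3 on the long arm, so they share no window.

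Among 10 growth and cell cycle genes, 3 were early on all 6 arrays, 1 was late on all 6, and MALT1 was later in K562. MALT1 read -1.21 and -0.65 in K562 and 0.44, 0.45, 0.48 and 0.59 in U2OS, and the lines differed by -1.42 (SE 0.30, limma adjusted p = 0.0169). The earliest by mean was TYMS, thymidylate synthase, at 0.87 ± 0.73 from 1 probe, and the latest TXNL1, a thioredoxin-like protein, at -0.53 ± 0.35. Of 9 transcription factor genes 1 was early on all 6, ONECUT2 at 0.76, and 4 were late on all 6, the latest ZNF407 at -1.06. Of 7 neuronal genes 1 was early on all 6, DLGAP1, a postsynaptic scaffold, at 0.79, and 2 late, the latest NETO1, an auxiliary subunit of glutamate receptors, at -0.95. No gene of the last 2 lists was called between the lines.

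On chromosome 19, 566 of 1420 gene names were early on all 6 arrays and 115 late on all 6, with a median of 0.41. On the 5 arrays other than old sorting, 719 were early throughout and 129 late. The 230 zinc finger genes were 45 early on all 6, 67 late on all 6 and 118 of changing sign, with a median of -0.21. They thus held 67 of the 115 always-late names. Their range ran from ZNF829 at -1.71 ± 0.62 to ZNF77 at 1.29 ± 0.66 (SD, n = 6), each on 1 probe. Limma called 8 earlier in K562 and 6 later, 6.09% of the list beside 6.12% of all gene names in the genome. The 8 were ZNF253, ZNF350, ZNF432, ZNF613, ZNF614, ZNF615, ZNF649 and ZNF841, 7 of them in the region at chr19:52250001-52750000. The 6 were ZNF225, ZNF234, ZNF257, ZNF264, ZNF304 and ZNF805. ZNF805 kept its call in 15 of 17 alternatives and ZNF225 in 5 of 17.

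ZNF350, a zinc finger repressor, read 1.3 and 1.21 in K562 and -0.35, -0.29, -0.59 and -0.93 in U2OS, and the lines differed by 1.80 (SE 0.31, limma adjusted p = 0.00641). ZNF805 read -1.55 and -1.82 in K562 and 0.70, 0.58, -0.31 and -0.01 in U2OS, and the lines differed by -1.92 (SE 0.35, limma adjusted p = 0.00846). In neither gene did the lines overlap, as in all 31 called names of chromosome 19, so this adds no support to the calls. These genes have close relatives on chromosome 19, and cross-hybridisation among them was not tested.

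The remaining lists of chromosome 19 are set against the 39.9% of its gene names that were early on all 6 arrays. Ribosomal protein genes were early on all 6 arrays in 9 of 11, and growth and tumour genes in 10 of 12. The means of the latter ran from 0.32 for TGFB1, a growth factor, to 0.85 for JAK3, a kinase of cytokine receptors. Of 17 genes of the pregnancy-specific glycoprotein and CEACAM adhesion families, 10 were early on all 6, and PSG5, PSG8 and PSG11 were later in K562, by -1.69, -1.44 and -1.22 (SE 0.38, 0.29 and 0.33; limma adjusted p = 0.021, 0.0132 and 0.0482). Of 13 kallikrein protease genes 5 (38.5%) were early on all 6, a share near that of all names, with means from KLK12 at -0.12 to KLK5 at 1.12. Of 13 genes of the leukocyte receptor cluster 7 were early on all 6, with means from LILRA5 at -0.10 to LILRB2 at 0.87. Of 13 cytochrome P450 genes 5 were early on all 6 (9 on the 5 arrays without old sorting) and CYP2A6, which metabolises nicotine, was late on all 6, at -0.67. Erythroid genes were early on all 6 in 2 of 6 and olfactory receptor genes in 2 of 5, and APOE, an apolipoprotein, was early on all 6 at 0.59. Many of these genes rest on 1 or 2 probes.

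The medians of the chromosomes lay further apart on the automated than on the manual U2OS arrays, by 1.36 and 1.37 against 0.63 and 0.59 on the log2 scale. The difference in early share was not wider, at 43.6 and 43.9 points on the automated arrays and 45.6 and 41.5 on the manual ones. Limma called 5.4% of all windows between automated and manual arrays, 0.17% earlier and 5.23% later with automation. On chromosome 18 it called 14 of 297, all 14 later with automation, and 2 of them had opposite signs in the 2 groups. On chromosome 19 it called 1 of 221, also later, at ZNF420 and its zinc finger neighbours; with arrays centred on the mean probe 2 were called there, both earlier. The median difference was -0.38 on chromosome 18 and 0.38 on chromosome 19, beside -0.20 over all windows. The median of chromosome 18 was thus further below 0, and that of chromosome 19 further above it, on the automated arrays. These were also the brighter ones, with channel medians of 128 to 199 against 45.2 to 50.1, whose part in the result was not tested. Without overlap between 2 manual and 2 automated arrays were 87.1% of windows genome-wide, 249 windows of chromosome 18 and 195 of chromosome 19. Scaled to the same median absolute deviation, the arrays gave 3 calls on chromosome 18 and 0 on chromosome 19, where 65 windows had an unadjusted p under 0.05 in limma. Over the whole genome 47 windows were called after this scaling, against 603 without it. The chromosome 18 count also moved with each array left out, in fits that leave 1 array in a group.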

How the data were processed

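Replication timing was read from 7 two-colour Agilent arrays of K562 and U2OS, 6 of a larger design and a K562 array labelled 44k, used only in alternatives. Per the file headers, Feature Extraction 11.5.1.1 wrote the deposited spot intensity of each channel, of which the mean signal and the median local background were used. The submitters' processing notes list version 9.1. Per the file headers, the log10 ratio deposited beside it sets late against early, from signals already background-subtracted and dye-normalized, and served as an alternative.

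Saturated, non-uniform and manually flagged spots were dropped. Background was corrected in limma 3.58.1 (R 4.3.3, normexp, offset 50), which draws dim arrays toward 0. Log2(Cy3/Cy5) was centred on the median probe of chromosomes 1 to 22 and X, and repeated probes were averaged. Windows of 250 kb needed 3 probes on each array. Python 3.11.15, numpy 2.4.6 and pandas 2.3.3 were used for the rest. Array number and brightness limit the precision.

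Chromosomes were compared by exact two-sided sign-flip tests over 6 arrays, lines by exact two-sided permutation of 2 against 4 arrays, and windows and gene names by limma (lmFit and eBayes) over the whole genome with Benjamini-Hochberg adjustment. The steps were tested on simulated data. The manual and automated arrays share numbers 1 and 2, but deviations of same-numbered arrays correlated at -0.0143 over 11175 windows, so the numbers were not taken as pairs.

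The chromosomes, gene lists and tests were chosen with earlier results of these data known. Named regions were, per chromosome and direction, up to 3 with the largest difference between the lines among called, non-overlapping windows, the 3 earliest and the latest of chromosome 18, the earliest and the 3 latest of chromosome 19, and the largest domains. Named genes were those in these regions and the called, earliest and latest members of the lists. Gene names are those of the probes: of 353 on chromosome 18, 219 are current RefSeq symbols and 31 synonyms, and of 1423 on chromosome 19, 1066 and 96. No hg19 annotation was used, so exons and introns are not given. Alternatives covered background, loess, scaling, centring, filters, probe GC, window size, the 44k array, slides and leaving out each array. The GC regression, the averaging of arrays of a slide, the 44k array in place of the old-sorting array, the counts without the old-sorting array and some fits for handling and gene names were chosen after seeing the data.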

Additional observations from a re-analysis of the deposited data

Results flagged for a closer look

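Of 48 values tested on the 4 U2OS arrays, 1 had an array far from the others. The share of early windows on chromosome 19 was 74.21% on U2OS manual 2 and 72.85% on the other 3 arrays, a gap that filled the whole range of the group (ratio 1, critical value 0.829). Chance gives such a gap in about 1 of 20 groups.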

How the results depend on the processing

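The difference in early share between the chromosomes kept its direction in all 21 settings run, from 39.1 to 45.9 points, as did the median window in 21 (0.81 to 1.90) and early domain size in 22 (916 to 4254 kb). In each, the 6 settings that leave out an array had an exact p of 0.0625, the smallest that 5 arrays allow, and so missed 0.05, with 41.8 to 44.8 points, 0.87 to 1.17 and 2774 to 3283 kb; the other 15, 15 and 16 stayed below it. Late domain size turned to 6.06 kb with 100-kb windows, 126 kb with the 44k array added and 181 kb with it in place of the old-sorting array. The sign-change difference was -3.16 without background correction, -3.13 with loess, -1.55 with 100-kb windows and 0.727 with probes well above background, with exact p of 0.0938, 0.125, 0.0938 and 0.75. Among windows without gene names the difference was 3.13 with the deposited ratio, 4.88 with loess and 16.1 with 100-kb windows. The K562 minus U2OS early share was -1.01 with the deposited ratio and -0.830 with the 44k array in place on chromosome 18; on chromosome 19 it was -0.566 without background correction, 5.32 with offset 0, 4.86 with the deposited ratio, -2.04 with probes well above background and 5.66 with mean centring; the difference of these was 5.49 with offset 0 and 5.87 with the deposited ratio. Called windows between the lines numbered 25 and 7 on chromosomes 18 and 19. They were 14 and 2 without background correction, 48 and 18 with offset 0, and 16 and 5 with loess. With the deposited ratio they were 52 and 22, with 100-kb windows 64 and 15, and with 500-kb windows 13 and 2. They were 45 and 15 with the 44k array in place, and 12 and 1 with arrays of a slide averaged. Whole-genome counts in that order were 630, 1973, 705, 2268, 2354, 454, 1699 and 559, against 965. A 4-group fit leaves 1 array in each K562 group, and its counts are not given here. Windows tested numbered 618 and 521 with 100 kb and 149 and 112 with 500 kb, against 297 and 221. With the 44k array in place they numbered 241 and 210. Called gene names were 48 and 67 with the deposited ratio and 15 and 7 without background correction. On chromosome 19 they were 55 with offset 0 and 20 with loess. The whole-genome counts of gene names in these settings were 2873, 772, 2288 and 1197, against 1508. Called handling windows were 3 and 0 without background correction, 25 and 9 with offset 0, 8 and 0 with loess, 41 and 9 with 100-kb and 4 and 0 with 500-kb windows, 4 and 2 with mean centring and 3 and 0 with equal spread, on chromosome 18 also 9 with probes well above background, and on chromosome 19 also 4 with the deposited ratio. Whole-genome handling counts in that order were 177, 769, 477, 1656, 211, 321, 47, 368 and 511, against 603. The 4 counts of 0 on chromosome 19 had 158, 171, 91 and 65 windows at an unadjusted p under 0.05 in limma. Leaving out an array gave late domain differences of -1191 to -873 kb, sign-change differences of -4.59 to -3.50, line differences in early share of -1.26 to 8.50 and -0.792 to 4.64, their difference -9.29 to 5.90, window counts of 4 to 69 and 0 to 24, gene counts of 0 to 32 and 0 to 42, and handling counts of 8 to 22 and 1 to 2. With the replicate block the handling counts were 14 and 1, and the block changed no call count. A random slide block could not be fitted, and other window sizes give no value for the named windows. The causes were not tested. In the late channel of chromosome 19, 20.2% to 90.4% of spots were well above background on the 6 arrays of the larger design.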

Other observations

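The windows that changed sign with the line were counted by direction. On chromosome 18, 9 windows (3.03%) were early on both K562 arrays and late on all 4 U2OS arrays. Another 18 (6.06%) were late on both K562 arrays and early on all 4 U2OS arrays. On chromosome 19 the counts were 7 (3.17%) and 3 (1.36%). The shares of such windows over the genome were not counted, so no excess on either chromosome can be read from these counts. The limma calls over the genome, 2.12% of windows earlier and 6.51% later in K562, follow another rule and are no baseline for them. The outer 5 Mb of the long arm also set the chromosomes apart: early windows were 17.5% in K562 and 20% in U2OS on chromosome 18, and 64.3% and 69.0% on chromosome 19. DCC, a netrin receptor of axon guidance on the long arm of chromosome 18, was read by 92 probes and had log2(early/late) of -1.66 and 0.02 in K562 (new and old sorting), against -0.58, -0.50, -1.33 and -1.09 in U2OS. DCC was singled out after its values were seen, and these values were not tested further.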
